A study of Mus musculus with 8 samples.

Results

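The cytosolic ribosomal protein genes were followed through RNA-seq of MC38 cells, a murine colon adenocarcinoma line, with and without DENR. A gene counted as a member when its symbol named a protein of the large subunit (Rpl, with Rplp0, Rplp1 and Rplp2) or of the small subunit (Rps, with Rpsa) and its normalized count averaged at least 100 over the 4 samples of both deposited tables. Of 80 matching symbols, 77 met this rule, 46 of the large and 31 of the small subunit, among 20432 genes listed in both tables. The 3 others were Rpl24, with 35.2 to 56.0 normalized counts (reads times 1 scaling factor per sample) in the 8 samples and 80.1% of its 100-base windows found in other genes, and Rpl3l and Rpl32l, with at most 4.08 and 6.87. Just inside the limit lay Rpl6l, with 357 to 508. All 77 members passed the filter on low values in both tables, and 76 are annotated as protein-coding, while Rpl6l is annotated as a processed pseudogene.

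Cells were control (labelled control; wild type) or DENR KO, made in the study by lentiviral Cas9 and sgRNA, and were either untreated or given 20 ng/ml IFNγ for 4 h, with 2 samples in each of the 4 groups. The labels do not say whether the 2 DENR KO samples came from separate sgRNAs, clones or cultures of 1 line. P-values therefore measure the spread between these samples. Each sample had 17369020 to 18403790 reads on genes. Denr itself had 1448 and 1297 normalized counts in untreated control and 943 and 916 in untreated DENR KO cells, and with IFNγ 1438 and 1401 in control and 946 and 957 in DENR KO cells, so that its transcript was lower in every DENR KO sample and remained detectable. The log2 fold change was -0.56 ± 0.08 (SE) untreated and -0.58 ± 0.07 with IFNγ, with adjusted p-values of 0.00011 and 8.17e-06 by limma. Of 8 colon epithelium markers, 4 were listed in both tables, without Epcam, Krt18, Krt20 and Cdx2, and their sum stayed between 12.7 and 24.6 normalized counts, while the 4 fibroblast markers Col1a1, Col1a2, Dcn and Pdgfra summed to 16219 to 19425, so the labelled origin from colon epithelium was not visible in these markers. None of the 5 immune markers was listed in both tables, and the endothelial markers, 2 of 3 listed, summed to 15.6 to 31.2. In bulk RNA a lower level per cell and a smaller share of cells cannot be told apart.

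Ribosomal proteins and ribosomal RNA are assembled in the nucleolus into a large subunit, which forms peptide bonds, and a small subunit, which reads the mRNA. Their mRNAs are among the most abundant of a growing cell. They typically begin with a terminal oligopyrimidine (TOP) tract, a C followed by a run of C and T, which LARP1 binds and through which mTOR sets their translation, so that the amount of mRNA and the amount of protein made can move apart. DENR acts on the small subunit itself: with MCTS1 it releases tRNA from small subunits after termination and helps ribosomes to resume scanning after a short upstream reading frame. RNA-seq measures the mRNA only. Ribosomal protein genes have also left many processed pseudogenes in the mouse genome, near-identical copies to which reads of a member can be assigned.

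Both features can be read in the sequences. Of the 77 members, 56 matched a RefSeq start (build GRCm38.p6), and 29 of these, 51.8%, held a run of at least 8 bases that were all C or T (letters C and T on the transcribed strand) lying wholly within 20 bases of the start, against 18.4% of 27025 genes and 18.8% of 69 mitochondrial ribosomal protein genes. The share was 54.5% of 33 large subunit and 47.8% of 23 small subunit members. A C at the annotated start followed by 4 bases of C or T was held by 13 members, 23.2%, against 3.01% of all genes and 0 of the mitochondrial ones. An annotated start can lie some bases from the real one, so a missing tract says only that the letters were not in the window. Stretches of 30 bases around the start, 10 before it and 20 from it on, are shown for 5 of the members described below that hold such a tract, in capitals. They lie on the minus strand at chr4:86857348-86857377 (Rps6), chr17:33955646-33955675 (Rps18), chr3:90213629-90213658 (Rps27) and chr7:45128726-45128755 (Rpl13a), and on the plus strand at chr11:114668570-114668599 (Rpl38).
Rps6: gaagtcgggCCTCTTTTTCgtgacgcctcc
Rps18: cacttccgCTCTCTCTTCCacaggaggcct
Rps27: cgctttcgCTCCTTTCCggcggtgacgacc
Rpl13a: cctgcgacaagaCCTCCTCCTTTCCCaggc
Rpl38: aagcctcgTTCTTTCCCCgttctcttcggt

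The second feature is shared coding sequence. For each member, 100-base windows of its longest protein-coding transcript (GENCODE M21) were searched letter for letter, on the same strand, in the transcripts of all other genes. Some window was found elsewhere for 72 members and none for 5, and the median share of windows found elsewhere was 30.7%. The 4 stretches below are the 30 coding bases held by the most other annotated genes, for 4 of the 5 members whose values spread most over the 8 samples: 63 other genes for Rpl21, 74 for Rpl7a, 23 for Rps12 and 13 for Rps27a. They begin at base 390 of the Rpl21, 504 of the Rpl7a, 489 of the Rps12 and 560 of the Rps27a transcript. These genes lie at chr5:146832890-146837032 (Rpl21), chr2:26910764-26913318 (Rpl7a), chr10:23785183-23787275 (Rps12) and chr11:29545846-29548109 (Rps27a) in the deposited coordinates.
Rpl21: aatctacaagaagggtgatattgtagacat
Rpl7a: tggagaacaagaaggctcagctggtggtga
Rps12: ttaaggactatggcaaagaatctcaggcca
Rps27a: aagcataagaggaagaaggttaagttggct

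Levels between genes were compared as RPKM (reads per kilobase of gene length, scaled to the reads on genes of the sample), averaged over all 8 samples. The members' levels spread widely on this scale, from 13.4 to 2705 in the large subunit, with a median of 259. In the small subunit they ran from 62.4 to 1095, with a median of 270. Each assembled ribosome takes the proteins in near-equal numbers. The scale divides by the deposited gene length, which can exceed the longest annotated transcript, as in Rpl35a (3526 against 519 bases). In Rplp1 both were 499 bases, and the part of this length in the spread was not tested. Rplp1, a protein of the ribosomal stalk, was highest at 2705 ± 95 (SD, n = 8), followed by Rplp0, the base of that stalk, at 1524 ± 47.1 and Rpl8, a core protein near the peptidyl transferase centre, at 1129 ± 47.6. Rplp1 and Rplp0 did not overlap with each other or with Rpl8 in any sample, while Rpl8 (1046 to 1206) overlapped with Rps2 (922 to 1219). The lowest by RPKM were Rpl13a at 13.4 ± 1.15, Rpl6l at 28.5 ± 2.81 and Rpl21 at 34.3 ± 7.76. Of Rpl21, 16.7% of windows were shared with other genes, of Rpl13a 55.2% and of Rpl6l 61.9%, so these rows may depend on how shared reads were assigned. Gm45713, which holds 55.2% of the Rpl13a windows, is not listed in both tables.

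As a group the members held a similar share of the reads in all 8 samples. They took 4.73% and 4.34% of the reads on genes in untreated control cells, 4.85% and 4.53% in untreated DENR KO cells, 4.62% and 4.62% in control cells with IFNγ, and 4.58% and 4.64% in DENR KO cells with IFNγ. The samples of untreated control and DENR KO cells interleaved, and with IFNγ the 2 control samples lay between the 2 DENR KO samples. The group means were 4.54% ± 0.273 (SD, n = 2) in untreated control, 4.69% ± 0.228 in untreated DENR KO, 4.62% ± 0.0028 in control with IFNγ and 4.61% ± 0.0418 in DENR KO with IFNγ. Pseudogene loci named for ribosomal proteins took a further 0.220% to 0.252%.

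The balance of the subunits was compared within each sample as the summed reads per kilobase of large over those of small subunit members. The ratio was 1.81 and 1.74 in untreated control, 1.74 and 1.74 in untreated DENR KO, 1.80 and 1.75 in control with IFNγ and 1.70 and 1.74 in DENR KO cells with IFNγ. Its means were 1.78 ± 0.0461 (SD, n = 2) and 1.74 ± 0.0043 without IFNγ, and 1.78 ± 0.0304 and 1.72 ± 0.0292 with it, control first. With IFNγ both control samples lay above both DENR KO samples, and without it the second control sample was level with them. An exact two-sided permutation test of 2 samples against 2 cannot give a p below 0.333, so none was run.

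**Figure D1:**
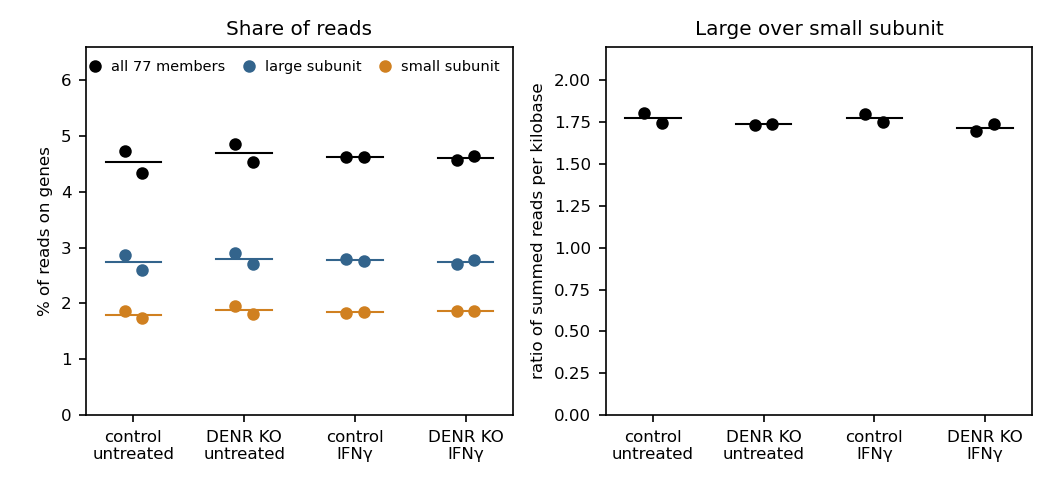
Left, percent of reads on genes taken by all 77 members, by the 46 large subunit and by the 31 small subunit members. Right, summed reads per kilobase of large over small subunit members. Points are samples, 2 per group, and lines are group means. The total stayed between 4.34% and 4.85%, and the ratio between 1.70 and 1.81.

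The first comparison asked whether loss of DENR moved ribosomal protein mRNA in untreated cells. No member was called, at an adjusted p under 0.05 by limma over 13998 genes, while 0.429% of all genes were called higher and 0.15% lower. The lowest adjusted p of a member was 0.358. An unadjusted p under 0.05 was held by 4 members, against 9.25% of all genes. This count rested on single samples: it rose whichever sample was left out, most without the first control sample. The share of all genes rose only in that last case. The lone sample left in a group is then assumed to vary like the other group. By edgeR and DESeq2 on the recovered reads no member was called either, with 4 and 3 at an unadjusted p under 0.05, against 9.17% and 3.84% of all genes. The median log2 fold change, DENR KO over control, was 0.06 for the large and 0.04 for the small subunit, with 63 members above 0 and 14 below, against a median of 0.0019 over all genes.

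The 95% intervals say how much room these data leave. The interval of the typical member reached 0.13 to either side on the log2 scale, and that of the typical gene 0.21. For 62 members the whole interval lay within 0.5 of no change, and for 70 within 1. Both DENR KO samples lay above both control samples in 13 members, 16.9%, against 20.4% of all genes, and below them in 1, 1.3%, against 19.6%. The member below was Rpl17.

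The 3 members with the highest fold changes and no overlap untreated were Rpl21, Rpl13a and Rpsa. Rpl21, a large subunit protein with many pseudogenes, had 1197 and 1636 normalized counts in control and 2514 and 2300 in DENR KO cells. The 2 genotypes did not overlap, at a log2 fold change of 0.78 ± 0.19 (SE, 95% interval 0.18 to 1.38, adjusted p = 0.452). Rpl13a, which in human cells is released from the ribosome after IFNγ to join the GAIT complex that silences inflammatory mRNAs, had 509 and 446 in control and 548 and 568 in DENR KO cells, for a log2 fold change of 0.23 ± 0.10 (adjusted p = 0.467). Rpsa, a small subunit protein also known as a laminin receptor, had 27751 and 26036 in control and 30609 and 28845 in DENR KO cells, for a log2 fold change of 0.14 ± 0.05 (adjusted p = 0.358). Rpl17, at the polypeptide exit tunnel, had 5827 and 3743 in control and 3641 and 3288 in DENR KO cells, for a log2 fold change of -0.43 ± 0.31 (adjusted p = 0.796). Its control samples stood farther apart from each other than the lower of them did from DENR KO. With 1 sample left out, when the lone sample is assumed to vary like the other group, Rpl21 was called each time, at 0.56 to 1.01, and Rpl17 was called at -0.75 to -0.36 except without the first control sample (-0.11, adjusted p = 0.48).

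The second comparison asked the same of cells given IFNγ, in which 1.8% of 13928 genes were called higher and 2.25% lower in DENR KO. No member was called, and the lowest adjusted p was 0.117. An unadjusted p under 0.05 was held by 10 members, 2 higher and 8 lower, against 13.4% of all genes. By edgeR no member was called, with 9 at an unadjusted p under 0.05, against 13.4% of all genes. DESeq2 called 1 member, Rpl7a, and 2.69% of all genes. It gave 5 members at an unadjusted p under 0.05, against 7.74% of all genes. The median log2 fold change was -0.03 for the large and -0.0075 for the small subunit, with 27 members above 0 and 50 below, against -0.0004 over all genes. The interval of the typical member reached 0.11 to either side, and for 71 members it lay within 0.5 of no change. Both DENR KO samples were above both control samples in 6 members, 7.79%, against 21.1% of all genes, and below in 15, 19.5%, against 20.8%.

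The lowest non-overlapping members with IFNγ were Rpl7a, Rpl6l and Rpl38. Rpl7a, a large subunit protein whose gene also hosts small nucleolar RNAs, had 3053 and 3986 normalized counts in control and 2090 and 1853 in DENR KO cells, for a log2 fold change of -0.83 ± 0.16 (SE, 95% interval -1.27 to -0.38, adjusted p = 0.117). By DESeq2 its log2 fold change was -0.84 at an adjusted p of 0.0032. Over the other fits that kept every sample the adjusted p ran from 0.00348, when its copies were added in, to 0.595, when all 8 samples were fitted jointly. Untreated, the same gene had 4186 and 2180 in control and 3667 and 2031 in DENR KO cells, so that its replicates there differed more than its genotypes did. Rpl38, which is known for its part in the translation of Hox mRNAs, had 2406 and 2657 in control and 2023 and 2395 in DENR KO cells, for a log2 fold change of -0.20 ± 0.08 (adjusted p = 0.218). Rpl6l had 429 and 493 in control and 357 and 422 in DENR KO cells, at -0.24 ± 0.11 (adjusted p = 0.311). With 1 sample left out, Rpl7a was called each time, at -1.02 to -0.63, and Rpl38 was called without the first control sample (-0.27, adjusted p = 0.0323) and without the second DENR KO sample (-0.32, adjusted p = 0.00818).

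The highest non-overlapping members with IFNγ were Rpl23a, Rpsa and Rpl30. Rpl23a, which docks the signal recognition particle at the exit tunnel, had 5294 and 5311 in control and 5588 and 6055 in DENR KO cells, for a log2 fold change of 0.13 ± 0.06 (adjusted p = 0.276). Rpsa had 26746 and 27525 against 28914 and 28385, at 0.08 ± 0.05 (adjusted p = 0.492), and so was higher in both DENR KO samples in each condition. Rpl30 had 6612 and 6716 against 6765 and 7117, at 0.06 ± 0.05 (adjusted p = 0.737).

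**Figure D2:**
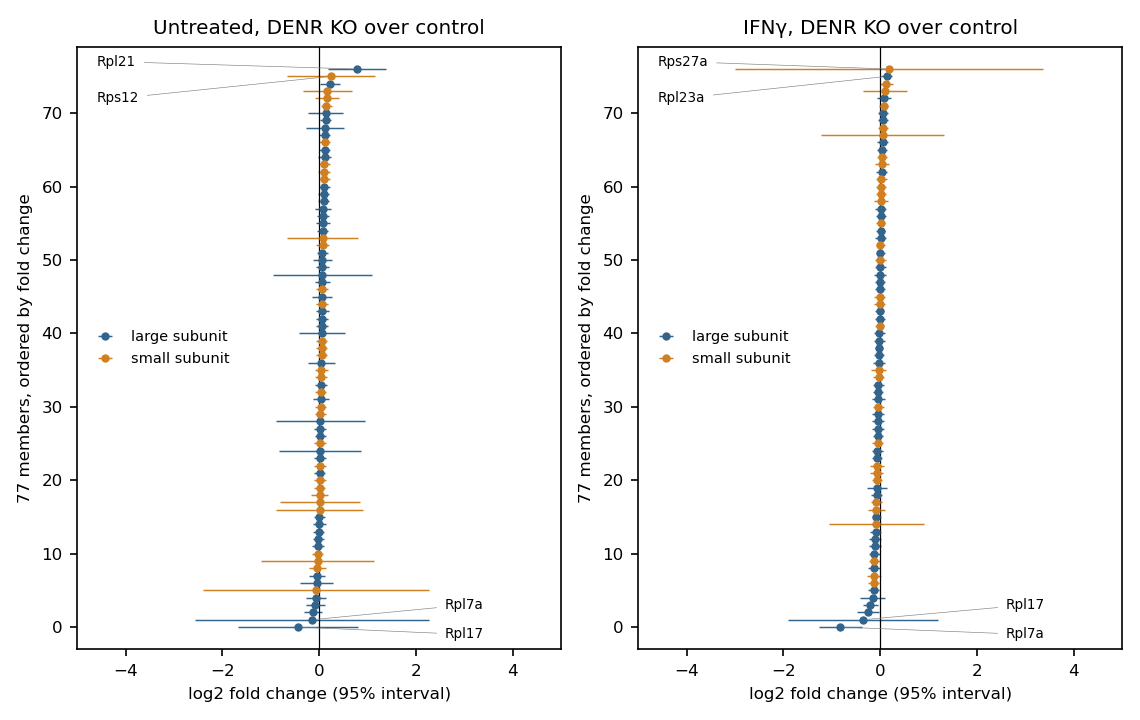
Log2 fold change (DENR KO over control) with its 95% interval for each of the 77 members, untreated on the left and with IFNγ on the right, ordered by fold change (vertical axis, rank from 0). Most intervals are short and cross 0, and the widest, of Rps27a with IFNγ and Rpl7a untreated, span several log2 units.

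The difference between both effects, DENR KO over control with IFNγ minus untreated, was tested over all 8 samples. No member was called, by limma, edgeR or DESeq2, while 0.0214% of 13998 genes were called higher and 0.429% lower, and the lowest adjusted p was 0.69. An unadjusted p under 0.05 was held by 2 members with either count test, against 5.83% (edgeR) and 3.28% (DESeq2) of all genes. With limma it was held by 3, against 5.74%. The limma count rose strongly without the first untreated control sample, where the share of all genes rose as well, and stayed low without any other sample. The 3 members were Rpl21 (-0.94 ± 0.28, adjusted p = 0.69), Rpl13a (-0.30 ± 0.14, adjusted p = 0.851) and Rplp1 (-0.15 ± 0.07, adjusted p = 0.868). Without the second untreated control sample Rpl21 was called (-1.16, adjusted p = 0.0325). The median difference was -0.08 for the large and -0.07 for the small subunit and lay below 0 for 71 of the 77 members, against 0.0010 over all genes. Since members share samples and depth, this count is a description of these 8 samples.

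Within a genotype the 2 tables can only be set side by side, since they were normalized separately. Scaled to the reads on genes of each sample (RPM), IFNγ over untreated came to a median log2 ratio of 0.01 for the large and 0.03 for the small subunit in control cells, and of -0.04 and -0.01 in DENR KO cells, against -0.07 and -0.05 for all genes. In control cells both IFNγ samples lay above both untreated samples in 14 members, 18.2%, against 17.6% of all genes, and below in 1, 1.3%, against 37.5%. In DENR KO cells 1 member, 1.3%, lay above, against 18.9%, and 14 members, 18.2%, lay below, against 33.9%. Of the 77 members, only Rpl21 (0.76) and Rps27a (0.25) in control and Rpl7a (-0.50) and Rps27a (0.44) in DENR KO cells lay beyond 0.2 on the log2 scale. The untreated and treated samples overlapped for Rps27a in both genotypes and for Rpl7a in DENR KO cells. The IFNγ-induced transcription factor Irf1 had 1373 to 1508 normalized counts in the 4 untreated and 11900 to 17208 in the 4 treated samples.

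Ribosomal protein genes are common reference genes in qPCR, and their values show how steady they were here. Rplp0 had 47902 and 43412 normalized counts in untreated control, 47547 and 45069 in untreated DENR KO, 44873 and 44789 in control with IFNγ and 43792 and 44485 in DENR KO cells with IFNγ, so that its highest sample was 1.10 times its lowest. Rpl19 ranged 1.11-fold (11733 to 13000), Rps18 1.13-fold (15186 to 17164), Rpl32 1.2-fold (8788 to 10557) and Rpl13a 1.27-fold (446 to 568). Gapdh, another GAIT subunit and reference gene, had 434 and 4248 in untreated control, 366 and 374 in untreated DENR KO, 347 and 351 in control with IFNγ and 4029 and 2201 in DENR KO cells with IFNγ, with an adjusted p of 0.816 untreated and 0.18 with IFNγ. Shared windows were searched only for ribosomal protein genes, so the part of read assignment in these Gapdh values was not tested. No member varied as widely as Gapdh, and none of the 4 GAIT genes was called.

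Several members have known roles beyond the assembled ribosome. Rpl5 and Rpl11, which bind the 5S RNA and can restrain Mdm2 when ribosome assembly fails, ranged from 16943 to 18436 and from 10098 to 12352 normalized counts. Rps6, the substrate of the S6 kinases, ranged from 14074 to 16533. Rps27 ranged from 2880 to 4130 and its paralog Rps27l, a p53 target, from 1135 to 1380. Rpl22, whose paralog Rpl22l1 can take its place, ranged from 7213 to 8178, and Rpl22l1 from 303 to 364. None of these members reached a spread of 1.5-fold over the 8 samples.

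Over the 8 samples, which pool the 2 separately normalized tables, the highest value of a member was on median 1.17 times its lowest. This ratio was under 1.2 for 46 members, from 1.09 in Rps25 upward, and under 1.5 for 72. The 5 others were Rps27a (2.57), Rpl7a (2.26), Rpl17 (2.11), Rpl21 (2.10) and Rps12 (1.56). All 5 share windows with other genes, from 16.7% of windows in Rpl21 to 81.4% in Rps12. Across the 77 members the Spearman correlation of spread and shared windows was 0.07, a description over genes of the same libraries. Rps6, with 83.6% of windows shared, ranged only 1.18-fold. Windows covered the longest transcript, coding or not: in Rpl21 only bases 295 to 774 of 1856 are coding, while 40 other genes share windows with it. The part of sharing in the spread was not tested. The 5 members with no shared window, among them Rpl22 and Rps27l, ranged at most 1.38-fold.

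**Figure D3:**
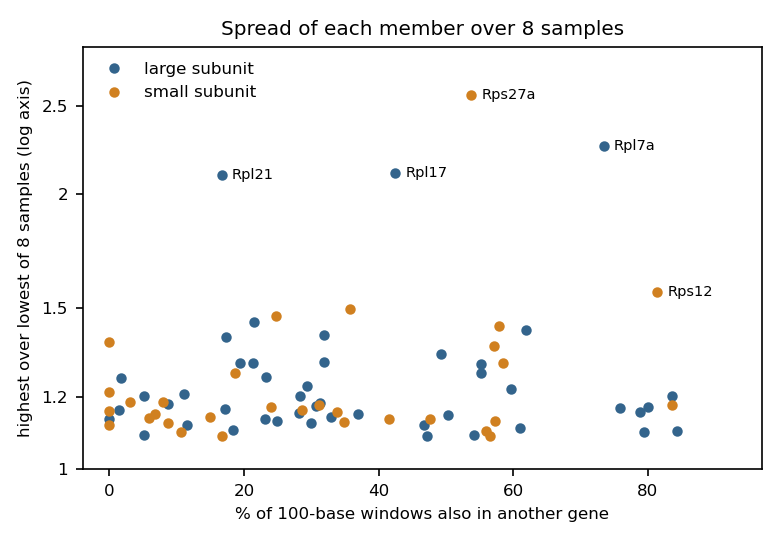
Highest over lowest normalized count among the 8 samples (log axis) against the percent of 100-base windows found in another gene, 1 point for each of the 77 members. Windows are those of the longest transcript. Only 5 members pass 1.5, all with shared windows, while Rps6, with 83.6% of windows shared, stays at 1.18. The median of all 77 is 1.17.

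For 2 of these 5, Rpl17 and Rpl21, the sum of the member and its copies was far steadier than the member. The added loci together had 6536 to 9937 normalized counts for Rpl17 and 3637 to 4489 for Rpl21, more than the member in every sample. Adding such counts narrows a fold spread and a fold change by itself, and the part of this in the sums was not tested. Rpl17 had 5827, 3743, 3641, 3288, 5193, 3942, 2757 and 4524 normalized counts, in the order untreated control, untreated DENR KO, control with IFNγ and DENR KO with IFNγ. Its copy Rpl17-ps10 had 2610, 4735, 5404, 5012, 3211, 4994, 5164 and 4383 in the same samples. The 2 control samples with the most on Rpl17 had the least on Rpl17-ps10. Summed with all 12 loci in both tables that share windows with it, Rpl17 ranged from 12315 to 13619, a 1.11-fold spread, and its log2 fold change in untreated cells went from -0.43 to 0.06.

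Rpl21 had 1197, 1636, 2514, 2300, 2271, 2486, 2400 and 1894 in the same order. Both untreated control samples were below all others. Summed with 25 other loci it ranged from 5615 to 6378, a 1.14-fold spread. The log2 fold change of the sum was 0.13 in untreated cells, where the member alone had 0.78, and the interaction went from -0.94 to -0.18.

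For the other 3 the sums were less steady. Rps27a, a fusion of ubiquitin with a small subunit protein, had 2989, 5229, 5219, 2743, 2747, 6971, 7047 and 3502, and with 2 other loci the sum still ranged 2.23-fold. Each group held 1 sample between 2743 and 3502 and 1 between 5219 and 7047, so that its groups overlapped in both conditions. The 2 other loci together had 437 and 406 in the samples with 6971 and 7047 on Rps27a, and 529 to 647 in the other 6. Rpl7a with 22 loci ranged 1.74-fold, and the log2 fold change of the sum with IFNγ was -0.48 (adjusted p = 0.00348). Rps12, a small subunit protein with 6833, 9412, 10088, 8958, 6644, 10387, 8047 and 9220, ranged 1.46-fold as a sum with 7 loci. The part that the assignment of reads has in these values was not tested, since the reads were not used here and only loci in both tables could be added.

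**Figure D4:**
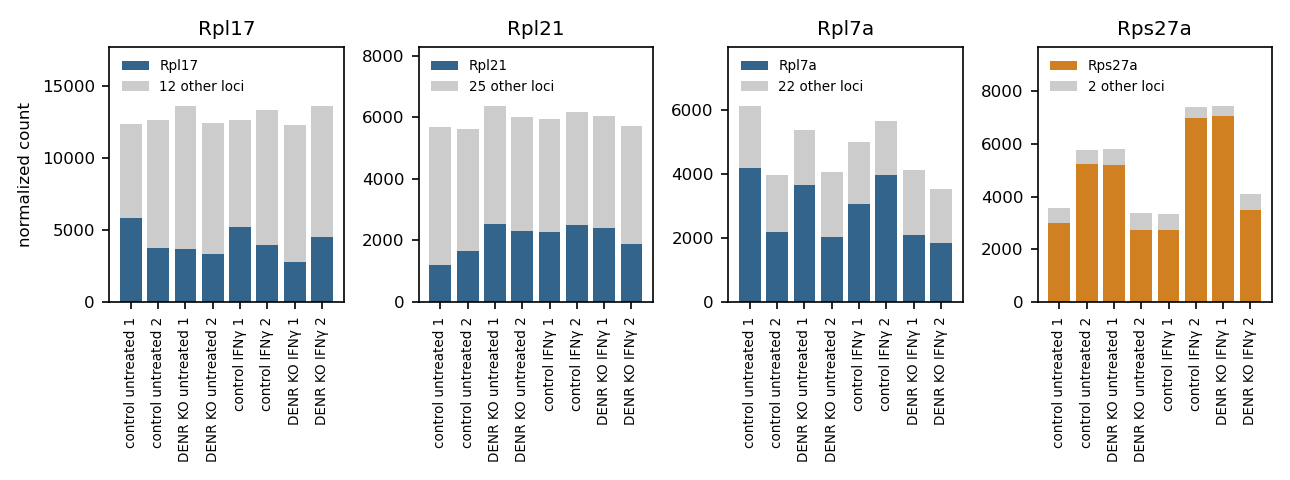
Normalized counts of Rpl17, Rpl21, Rpl7a and Rps27a in each of the 8 samples (coloured) with the summed counts of other loci that share 100-base windows with them (grey). The total bars of Rpl17 and Rpl21 are nearly level, at 12315 to 13619 and 5615 to 6378, while those of Rpl7a and Rps27a are not.

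In the untreated table the samples themselves differed. Relative to the mean of the 4 samples, the median member lay at 0.03 and -0.10 in the 2 control samples and at 0.07 and -0.02 in the 2 DENR KO samples on the log2 scale, while the median of all genes stayed between -0.0002 and 0.0038. The second control sample was the lowest of the 4 for 53 members. Leaving it out turned the median of the large subunit from 0.06 to -0.03. With IFNγ the 4 sample medians lay between -0.03 and 0.01.

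Members with short annotated transcripts stood out in this split. Length was that of the longest annotated transcript, so a member with 1 longer isoform counted as longer, whichever isoform the cells expressed. For the 9 members of up to 500 bases the first untreated control sample exceeded the second by a median log2 difference of 0.38. For the 32 members over 1000 bases it did so by 0.12, and for the 12 of 500 to 700 and the 24 of 700 to 1000 bases by 0.11. The widest gaps among the 9 were in Rps28 (2189 and 1463 normalized counts), Rps29 (1441 and 979) and Rps21 (4064 and 2947). All had the DENR KO samples between the 2 control values. The narrowest were in Rps27 (3566 and 3487) and Rplp1 (24424 and 22677). Over all protein-coding genes tested, with the members included, the median was 0.22 for 47 genes of up to 500 bases and 0.0 for 10847 genes over 1000 bases. Genes outside the family were not set apart. In the other groups the median difference between replicates of the short members was 0.09 (untreated DENR KO), 0.06 (control with IFNγ) and -0.02 (DENR KO with IFNγ). The part of transcript length in the fold changes was not tested, and without these 9 members the subunit medians were 0.06 and 0.05 untreated and -0.02 and 0.0037 with IFNγ.

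**Figure D5:**
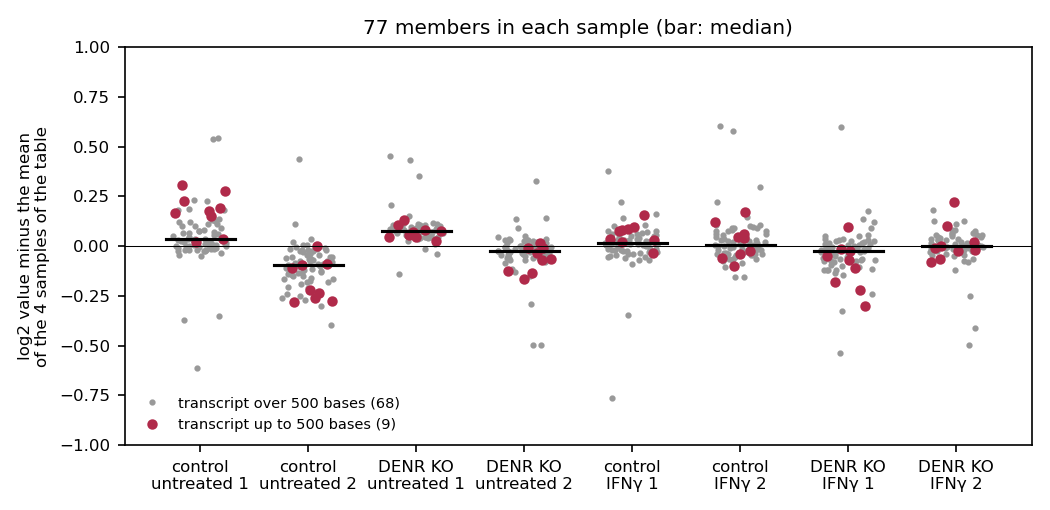
Log2 value of each member minus its mean over the 4 samples of the same table, in each of the 8 samples, with members of short transcripts in red and the median of all 77 as a bar. The second untreated control sample sits lowest, with a median of -0.10, and most of its short members lie lower still, though not all, as in Rps27.

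Related gene lists, fixed by symbol, were described by the same counts. Of 76 mitochondrial ribosomal protein genes none was called in any of the 3 comparisons, with medians of 0.05 untreated, -0.03 with IFNγ and -0.07 for the interaction, close to the medians of the cytosolic members (0.05, -0.02 and -0.08). Of 47 ribosome biogenesis genes, which include RNA polymerase I subunits and processing factors, none was called, with medians of -0.01 and -0.03. Of 19 other translation genes with TOP mRNAs, such as Eef1a1, Eef2 and Pabpc1, none was called, with medians of 0.05 and -0.01. Of 13 genes of the mTOR, LARP1 and Myc group none was called, and Larp1 had 4968 to 5288 normalized counts untreated and 5990 to 6255 with IFNγ. Of 4 reinitiation genes Denr alone was called, and its partner Mcts1 had 321 to 376 untreated and 294 to 373 with IFNγ.

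A few cytosolic ribosomal protein genes carry symbols that the rule does not match. Rps3a1 had 17012 to 18804 normalized counts, Fau, a fusion of a ubiquitin-like domain with a small subunit protein, 8581 to 10022, and none of 7 such genes was called. No pseudogene locus was called of 91 tested untreated and of 92 in the interaction. Among 90 tested with IFNγ, 2 were called, both higher in DENR KO, while 1.8% of all genes were called higher and 2.25% lower. Rps12-ps3 had 1472 and 1511 in control and 1741 and 2032 in DENR KO cells (log2 fold change 0.33 ± 0.07, adjusted p = 0.00739), and Rpl9-ps4 had 492 and 519 against 656 and 614 (0.33 ± 0.09, adjusted p = 0.0398). Rps12-ps3 shares windows with Rps12 and Rpl9-ps4 with Rpl9, so their reads cannot be told apart from those of the members with certainty.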

How the data were processed

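RNA was sequenced in 8 samples of MC38 cells, 2 in each of 4 groups. The submitters' processing notes name HISAT2 2.0.5, StringTie 1.3.3b, featureCounts 1.5.0-p3 and DESeq2 1.20.0, and list the build mm9, but the deposited coordinates of 72 of the 77 members and of 20698 of 21739 genes equal those of GENCODE M21 (GRCm38). How multi-mapped reads and strand were handled is not given in the sources used here. The authors deposited 1 table for untreated and 1 for IFNγ-treated cells, each holding a signal per gene and sample (counts times 1 scaling factor per sample, from 0.977 to 1.02 and set within the table, here called normalized counts), a gene length, group means, and the authors' fold changes and p-values. The last 3 were not used. Dividing by this factor gave back whole reads for every value (tolerance 0.001).

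DENR KO and control were compared within each table with limma 3.58.1 (trend, robust) on log2(value + 1), leaving out genes whose mean was under 10, with Benjamini-Hochberg adjustment over all genes tested and a threshold of 0.05. Fold changes are on that scale and understate those of low genes. The difference between both effects came from 1 fit of all 8 samples. edgeR 4.0.16 (quasi-likelihood) and DESeq2 1.42.0 on the recovered counts, other pseudocounts (0.5 and 5), no filter, centring on the median gene, a replicate block, a joint fit and leaving out each sample were alternatives. Adding up copies and leaving out short transcripts were chosen after seeing the data. The main limma fits and the edgeR and DESeq2 fits were tested on simulated counts with the same dispersion for every gene. The other alternatives were not simulated. Scripts ran in R 4.3.3 and Python 3.11.15.

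The members and lists were chosen with earlier results of these data known. Members named with their values were common qPCR reference genes and members with known roles, the 3 most extreme non-overlapping members in each direction and table, the 3 with the smallest p in the interaction, and the 3 with the highest and lowest level. Rps2, Rps12, Rps21, Rps25, Rps27a, Rps28 and Rps29 were chosen after their values were seen. Same-numbered samples are not stated to share a culture or day. Their deviations correlated at 0.0138 untreated and 0.0964 with IFNγ across genes, and at -0.11 and -0.37 across the 77 members. They were not treated as pairs. A correlation does not show a shift common to all members. Untreated, the first sample held more reads on members in both control (4.73% against 4.34%) and DENR KO cells (4.85% against 4.53%). With IFNγ the order differed between the genotypes.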

Additional observations from a re-analysis of the deposited data

How the results depend on the processing

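No member was called under the main settings, and this count stayed at 0 in all 3 comparisons with both other pseudocounts, with no filter, with edgeR and with centring, and in both tables with a joint fit. DESeq2 called 1 member with IFNγ, Rpl7a, against 2.69% of all genes. Summing members with their copies called 1 with IFNγ, also Rpl7a, against 4.09%. With a replicate block, for samples that share only a number, 3 members were called untreated (Rpl17, Rpl21 and Rps2), 14 with IFNγ (4 higher and 10 lower) and 0 in the interaction, while all genes called went from 81 to 257, from 565 to 1455 and from 63 to 150. Members at an unadjusted p under 0.05 went with the block from 4 to 18 (12% of all genes), from 10 to 25 (21.6%) and from 3 to 13 (8.41%). With no filter they were 11 untreated (7.72%), and with a joint fit 9 untreated (9.48%) and 5 with IFNγ (13.0%). Leaving out 1 sample gave 3 to 4 calls untreated, 2 to 5 with IFNγ and 0 to 1 in the interaction, while 0.251% to 0.651%, 3.06% to 4.65% and 0.264% to 0.664% of all genes were called. Untreated these held Rpl21 whichever sample was left out, Rpl17 unless it was the first control sample, Rps12 without the second control or second DENR KO sample, Rps27a without either DENR KO sample, Rpl7a without the first DENR KO sample, and Rpl35a, Rps19 and Rps2 without the first control sample. The lone sample left in a group is then assumed to vary like the other group, and the adjusted p-values of Rpl7a with IFNγ then fell to between 9.32e-31 and 1.83e-11. With IFNγ the calls held Rpl7a whichever sample was left out, with Rps12 without either control sample, Rpl38 and Rps2 without the first control or second DENR KO sample, Rps19 without the first control sample, Rpl21 without the first and Rpl17 and Rps27 without the second DENR KO sample. The interaction held Rpl37 without the first and Rpl21 without the second untreated control sample (Rpl21 -1.16, adjusted p = 0.0325). The cause was not tested.

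The subunit medians changed sign when 1 sample was left out, except for the large subunit with IFNγ. Its values ran, for the large subunit, from -0.03 to 0.14 untreated and from -0.037 to -0.013 with IFNγ, and for the small subunit from -0.0082 to 0.10 untreated and from -0.046 to 0.011 with IFNγ. With other ribosomal protein genes and pseudogene loci added, the share of reads was 4.93% in untreated control, 5.12% in untreated DENR KO, 5.03% in control with IFNγ and 5.03% in DENR KO with IFNγ. Without gene length, the ratio of large to small subunit reads was 1.52, 1.49, 1.51 and 1.47 in the same order.

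Some named members changed direction between settings, and no member at all had been called under the main settings. Centring on the median of all genes tested turned Rpl23a (-0.014), Rpl30 (-0.0069), Rplp0 (-0.0055) and Rps27l (-0.018) untreated and Rpl8 (-0.0004) and Rps6 (-0.0064) with IFNγ, and summing with copies turned Rpl17 (0.055) and Rps27 (0.0079) untreated and Rps6 (-0.0001) with IFNγ. Leaving out 1 sample moved, untreated, Rpl11 between -0.076 and 0.21, Rpl23a between -0.0054 and 0.0315, Rpl30 between -0.17 and 0.21, Rpl32 between -0.048 and 0.22, Rpl38 between -0.21 and 0.0565, Rpl6l between -0.17 and 0.023, Rpl7a between -0.62 and 0.32, Rplp0 between -0.049 and 0.093, Rps18 between -0.018 and 0.086, Rps27 between -0.18 and 0.12 and Rps27l between -0.13 and 0.15. With IFNγ it moved Rpl11 between -0.094 and 0.059, Rpl13a between -0.20 and 0.051, Rpl19 between -0.044 and 0.024, Rpl21 between -0.33 and 0.015, Rpl22 between -0.0205 and 0.051, Rpl8 between -0.024 and 0.045, Rps27 between -0.34 and 0.18, Rps27l between -0.11 and 0.052 and Rps6 between -0.0069 and 0.015.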

Other observations

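A row with no gene name, described in the tables by a ribosomal protein S10p/S20e domain and placed on an alternate scaffold, was among the few genes around the family that passed a test. It had 233 and 203 normalized counts in untreated control and 52.0 and 31.4 in untreated DENR KO cells, which is -2.40 on the log2 scale (adjusted p = 1.09e-06 by limma). With IFNγ it had 78.9 and 52.4 in control and 61.0 and 37.1 in DENR KO cells, or -0.43 (adjusted p = 0.561). The difference between both effects was 1.97 (adjusted p = 0.0286). The untreated control samples thus stood apart from the other 6, and the row was found by looking at unnamed loci after their values were seen.

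Rps6kb2, which encodes S6 kinase 2, had 15.1 and 44.9 normalized counts in untreated control, against 74.7 to 159 in the other 6 samples, with a log2 fold change of 1.89 ± 0.67 (SE) untreated (adjusted p = 0.561).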
